A study of Mus musculus with 13 samples.

Results

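The 39 Hox genes of the mouse were followed through 13 RNA-seq libraries of a culture series in which embryonic fibroblasts were turned with small molecules into cells named for the corneal endothelium. A gene was a member when its symbol was Hoxa, Hoxb, Hoxc or Hoxd followed by a number only, which took 39 of the 54232 Ensembl genes in the deposited table: 11 in the Hoxa cluster, 10 in Hoxb, 9 in Hoxc and 9 in Hoxd. All cells were C57BL/6. The labels give 6 groups. D7 (3 libraries) and D12 (2 libraries) were chemically induced neural crest cells at days 7 and 12, P1 (2 libraries) and P8 (2 libraries) were chemically induced corneal endothelial cells, all made from mouse embryonic fibroblasts, pCEC (1 library) was primary corneal endothelial cells at postnatal day 30, and D0 (3 libraries) was the starting fibroblasts of E13.5 embryos. The labels expand neither P1 nor P8, do not name the molecules, and do not say whether libraries of a group came from separate cultures, and the p-values therefore reflect library-to-library spread that may be no more than technical.

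Hox genes encode homeodomain transcription factors that give cells their position along the body. Each cluster is ordered, with paralogs of low number used early and near the head and paralogs of high number used late, in the trunk, the tail, the limbs and the genitals. Fibroblasts keep the Hox code of the place they came from, while the cranial neural crest in front of the hindbrain, from which the corneal endothelium is formed, is known for lacking Hox expression.

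Gene levels were deposited as FPKM, reads scaled by transcript length and by the total of mapped reads, in a table whose gene identifiers follow the line order of the D0 columns only; lines of the other groups were assigned to genes anew, as described with the processing. In D0, with the identifiers hidden, that assignment put all 37 Hox genes with reads on their own lines in each of 6 checks with known gene lengths. The starting guess of line order was built from the D0 identifiers. These checks therefore need not carry over in full to the other groups. Outside D0 the assignment found lines with reads for 175 of the 195 member and group pairs, and the other 20 were listed at 0. The totals behind the FPKM ran from 9997865 reads in P1 replicate 2 to 24030674 in D0 replicate 2. The clusters lie on chr6:52155590-52260880 (Hoxa), chr11:96194316-96368256 (Hoxb), chr15:102921103-103036852 (Hoxc) and chr2:74668310-74765142 (Hoxd) in the GENCODE M21 annotation of build GRCm38. There 23 members shared no exonic base with another gene. In 6 members over 25% of the exonic bases lay in exons of other genes: Hoxd3 (62.8%), Hoxb3 (52.9%, all within the antisense Hoxb3os), Hoxd4 (52.3%), Hoxa11 (35%), Hoxb2 (27.3%) and Hoxa3 (27.1%). The library kit does not mark strand and the counting is not stated, so reads of these 6 cannot be told from those of their partners.

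The labels were set against marker lists before any comparison. In pCEC the 8 epithelial markers summed to 3079 FPKM, with Krt5 at 675.7 and Krt14 at 643.6, while the corneal endothelial markers Col8a2 and Aqp1 stood at 0.0619 and 0.184 FPKM and the 8 fibroblast markers summed to 29.2. Epithelial markers summed to 6967 and 9349 FPKM in the P1 libraries and to 7887 in P8 replicate 1, against 11.04 to 13.3 in D0. The second P8 library stood apart from the first: its epithelial sum was 23.8 FPKM, its fibroblast sum 4152 and its macrophage sum 879.2, against 67.3 and 57.6 for fibroblast and macrophage markers in P8 replicate 1. In D0 the macrophage sum was 1137 to 1207 FPKM, and in D7 and D12 it was 8.38 to 14.4, with C1qa and C1qc listed at 0 in all 5 of those libraries. The 10 neural crest markers summed to 1005 to 1233 FPKM in D7 and D12, against 91.94 to 109.9 in D0. Of this Twist1 made up 879.8 to 1136, against 35.78 to 54.59 in D0. Msx1 was at 27.39 to 44.01 FPKM in D7 and D12, against 2.174 to 2.814 in D0. Tfap2b was at 4.736 to 6.932, against 0.5197 to 0.5532. Tfap2a, Pax3 and Ngfr were also above D0 in all 5 libraries. Sox9 and Sox10 were below D0 in all 5, with Sox10 at 0 to 0.480 FPKM. Foxd3 was at 0 in all 5, and Snai2 lay on both sides of D0. The part of these marker shifts in the Hox values was not tested, and in bulk RNA fewer cells of a type and less RNA per cell cannot be told apart.

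The level summed over all 39 genes was highest in one P1 library and lowest in pCEC. It was 369, 362 and 346 FPKM at day 0, 256, 258 and 257 at day 7 and 305 and 302 at day 12, then 463 and 183 in the P1 libraries, 217 and 228 in the P8 libraries and 158 in pCEC. The early groups were tight and did not overlap one another, whereas the 2 P1 libraries lay on either side of all of them. At least 1 FPKM was reached by 29 to 30 members at day 0, 25 to 27 at day 7, 26 to 27 at day 12, 19 to 21 in P1, 21 to 22 in P8 and 18 in pCEC.

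**Figure D1:**
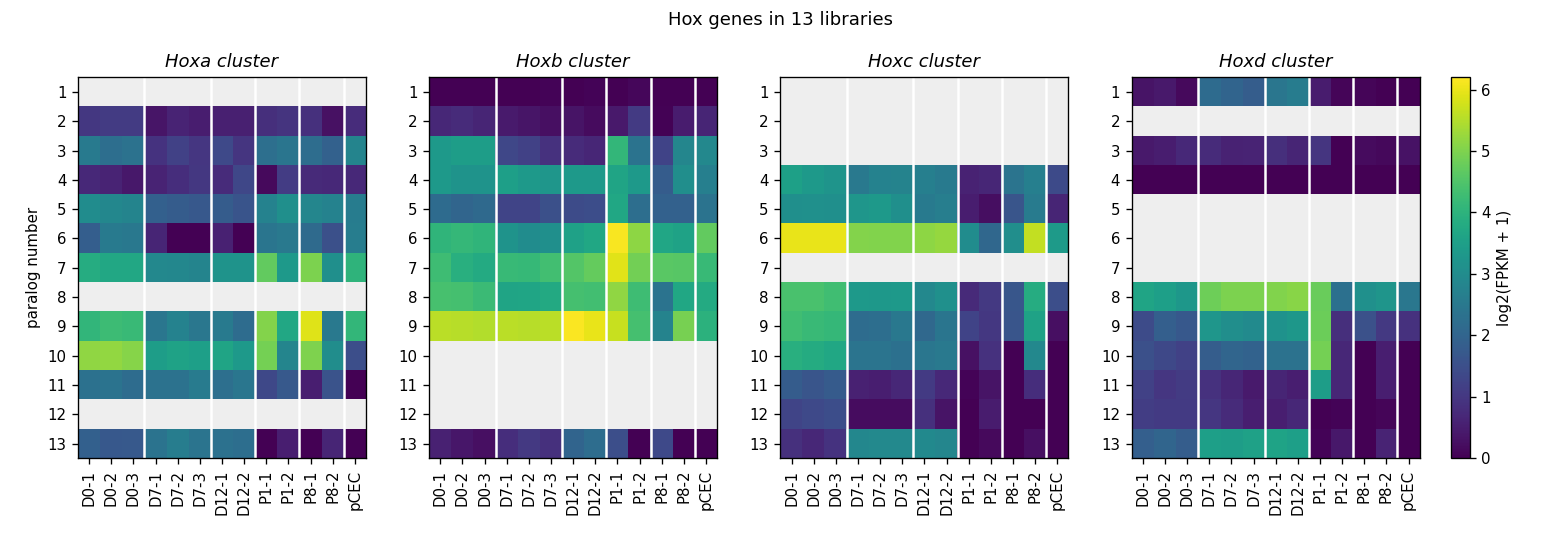
Level of the Hox genes shown as log2(FPKM + 1), with paralog number down the page, the 13 libraries across and 1 panel per cluster; grey rows hold no gene or one that is not shown. The Hoxc panel turns dark in both P1 libraries, in P8 replicate 1 and in pCEC, and the Hoxd panel is brightest in D7, D12 and P1 replicate 1.

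The 4 clusters changed in different ways between day 0 and day 7. Summed Hoxa was 34.6, 38.04 and 35.2 FPKM in D7, against 87.5, 89.2 and 84.5 in D0. For Hoxc the sums were 69.1, 70.4 and 69.8 FPKM in D7 and 138, 135 and 131 in D0. The Hoxd sums went the other way, with 55.1, 55.6 and 54.7 FPKM in D7 and 20.6, 20.4 and 17.7 in D0. Hoxb moved least, with 96.9, 93.7 and 97.4 FPKM in D7 and 123, 118 and 112 in D0. In every cluster the 3 D7 libraries lay wholly to one side of the 3 D0 libraries. As a share of all Hox FPKM, Hoxd made up 21.3% to 21.6% in D7, against 5.13% to 5.64% in D0.

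**Figure D2:**
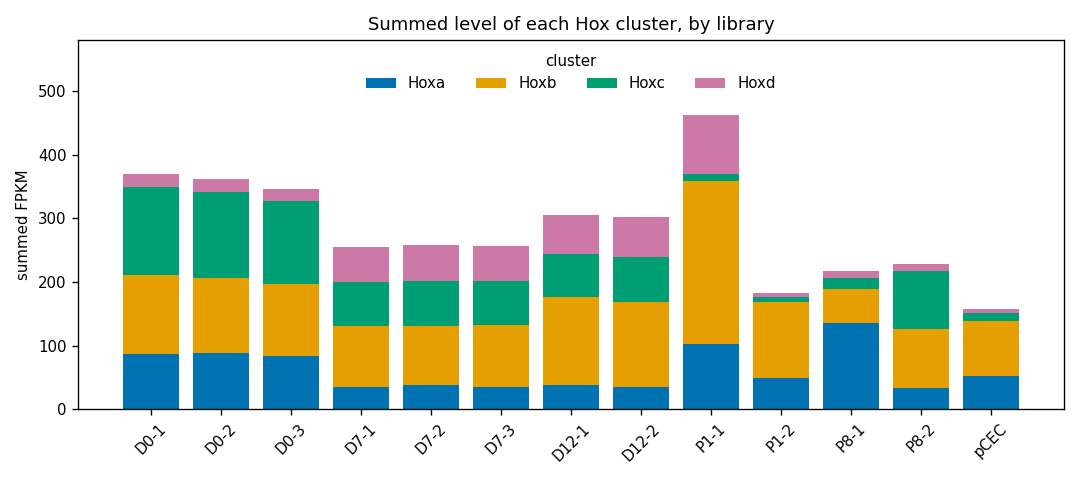
Summed FPKM of the Hoxa, Hoxb, Hoxc and Hoxd genes (stacked, colours) in each library. The D7 and D12 bars hold less Hoxa and Hoxc and more Hoxd than the D0 bars; Hoxc is 7.56 to 10.3 FPKM in P1 and 131 to 138 FPKM in D0.

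The first question was which Hox genes differed after 7 days of conversion. Differences were tested with limma on log2(FPKM + 1), with 1 mean per group over all 13 libraries, and a gene was called when its Benjamini-Hochberg adjusted p over 17459 genes was under 0.05 and it differed at least 2-fold on that scale, which understates the change of low genes. A member entered the test with at least 1 FPKM in 1 library, which 36 of 39 did, while Hoxb1, Hoxd3 and Hoxd4 stayed below it. Among called members, Hoxc12 and Hoxd12 reached 1 FPKM in D0 only, and Hoxc13 and Hoxd1 in D7 and D12 only. These entered the test only through groups where they were high, which limits their calls in every comparison below. In D7 against D0, 12 of the 36 were called, 4 higher and 8 lower, where 22.3% of all genes tested were called, 11.3% higher and 10.9% lower. The median log2 fold change was -0.49 over the 36 members, and 0.00 over all genes tested.

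All 4 Hoxa genes called in D7 were lower. Hoxa10, which patterns the lumbar trunk, the upper limb and the uterus, had 10.03, 10.8 and 10.4 FPKM in D7, against 34.8, 35.7 and 32.6 FPKM in D0. Its log2 fold change was -1.63 ± 0.56 (SE; limma adjusted p = 0.0435), and the groups were far from overlapping. The call was lost in 9 of 24 alternative settings, with a highest adjusted p of 0.105, although the lowest D0 value was 3 times the highest D7 value. Hoxa6, of thoracic identity, had 0.549, 0 and 0 FPKM in D7, against 2.62, 4.76 and 4.56 in D0. Its log2 fold change was -2.08 ± 0.28 (SE; limma adjusted p = 0.000567), so that a gene seen in every D0 library was at 0 in 2 of 3 D7 libraries. Hoxa3, a gene of the third pharyngeal arch, had 0.877, 1.30 and 0.974 FPKM in D7, against 4.83, 3.73 and 4.03 in D0. The log2 fold change of Hoxa3 was -1.34 ± 0.18 (SE; limma adjusted p = 0.000543), without overlap between the groups. Hoxa5, needed for the lung and the neck vertebrae, had 2.72, 2.51 and 2.26 FPKM in D7, against 7.14, 6.36 and 5.90 in D0. It fell with a log2 fold change of -1.09 ± 0.16 (SE; limma adjusted p = 0.000773).

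A pair of neighbours, Hoxa9 and Hoxa7, also separated the groups but missed the threshold, in a fit whose estimate of spread takes in the scattered P1 and P8 libraries. Hoxa9, active in posterior trunk and in blood stem cells, had 4.36, 5.73 and 4.51 FPKM in D7 and 15.97, 18.02 and 17.3 FPKM in D0. For Hoxa9 the log2 fold change was -1.63 ± 0.72 (SE; limma adjusted p = 0.0996). Hoxa7 had 6.47, 6.34 and 5.97 FPKM in D7 and 13.2, 12.1 and 12.1 in D0, and its log2 fold change was -0.89 ± 0.46 (SE; limma adjusted p = 0.155). Neither gene's groups overlapped, and a fit of the D7 and D0 libraries alone called 16 members, 5 higher and 11 lower, in place of 12. The share of all genes called by that fit was not set beside this count. The count therefore cannot be read as a change particular to Hox genes.

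In Hoxb, 1 gene of the 9 tested was called. Hoxb3, a hindbrain and pharyngeal arch gene that is mostly overlapped by its antisense partner, had 1.48, 1.30 and 0.854 FPKM in D7, against 9.06, 9.95 and 9.91 in D0. The log2 fold change was -2.27 ± 0.48 (SE; limma adjusted p = 0.00534), a call kept in all 24 alternative settings. Hoxb6, a thoracic gene, had 8.14, 7.03 and 7.54 FPKM in D7, against 15.7, 16.6 and 15.6 in D0, which just missed the 2-fold limit at a log2 fold change of -0.99 ± 0.22 (SE; limma adjusted p = 0.00684). Hoxb9, the most abundant Hox gene of D7, had 45.9, 45.1 and 46.1 FPKM in D7 and 46.1, 45.1 and 44.1 FPKM in D0, so the ranges overlapped and the log2 fold change was 0.02 ± 0.49 (SE; limma adjusted p = 1). Of the other genes of the cluster, Hoxb4 had 10.3, 9.12 and 8.52 FPKM in D7 and 8.999, 8.16 and 8.06 in D0. Hoxb5 had 1.43, 1.42 and 1.83 FPKM in D7 and 3.50, 3.08 and 3.38 in D0. Hoxb7 had 17.2, 16.8 and 18.95 FPKM in D7 and 18.5, 14.1 and 12.9 in D0. None of these 3 was called, and only Hoxb5 separated the groups. Hoxb8, which also acts in myeloid progenitors, had 11.4, 11.5 and 12.5 FPKM in D7 and 20.2, 19.8 and 17.7 in D0, without overlap and without a call at a log2 fold change of -0.66 ± 0.32 (SE; limma adjusted p = 0.137).

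The Hoxc cluster split at its end. Hoxc9, which sets thoracic motor neuron identity, had 3.58, 3.75 and 4.61 FPKM in D7, against 18.8, 17.3 and 16.4 in D0. It fell, at a log2 fold change of -1.90 ± 0.41 (SE; limma adjusted p = 0.00577). Hoxc11 and Hoxc12, low genes of the hindlimb and tail end, fell as well, with 0.474, 0.436 and 0.627 FPKM in D7 and 2.50, 2.10 and 2.46 in D0 for Hoxc11. The log2 fold change of Hoxc11 was -1.15 ± 0.21 (SE; limma adjusted p = 0.00251), a call lost by voom on recovered reads (adjusted p = 0.0656). Hoxc12 had 0.155, 0.151 and 0.160 FPKM in D7 and 1.42, 1.57 and 1.75 in D0, which gave a log2 fold change of -1.16 ± 0.17 (SE; limma adjusted p = 0.000779). Hoxc13, the last gene of the cluster and a regulator of hair and nail keratins, rose instead. It had 6.32, 6.61 and 6.51 FPKM in D7, against 0.805, 0.609 and 0.887 in D0, with a log2 fold change of 2.08 ± 0.14 (SE; limma adjusted p = 9.24e-06), and every D7 library was above every D0 library.

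The 5 other Hoxc genes were not called between D7 and D0. In 4 of them every D7 library was below every D0 library. The share of all genes that separate in this way was not counted, here or for the other members. By limma, 8560 of the 17459 genes tested had an unadjusted p under 0.05 in this comparison, against 21 of the 36 members. Hoxc6, of the level of the forelimb and the most abundant Hox gene of D0, had 32.01, 31.6 and 31.6 FPKM in D7, against 62.2, 63.1 and 62.9 in D0. With no overlap, its log2 fold change was -0.96 ± 0.53 (SE; limma adjusted p = 0.185). Hoxc8, of the middle thorax, had 9.16, 8.81 and 9.15 FPKM in D7 and 20.4, 20.3 and 18.8 in D0. Hoxc10, of the lumbar spinal cord, had 4.21, 4.21 and 3.87 FPKM in D7 and 13.95, 13.1 and 12.04 in D0. These 2 had log2 fold changes beyond 1, but adjusted p values of 0.0878 and 0.0747 by limma. Hoxc4 had 4.70, 5.76 and 5.80 FPKM in D7 and 10.4, 9.04 and 8.27 in D0, below the 2-fold limit. Hoxc5 overlapped, with 8.52, 9.08 and 7.53 FPKM in D7 and 7.45, 7.65 and 7.50 in D0.

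In Hoxd, 3 of the 7 genes tested rose in D7 and none fell. Hoxd13, the digit and genital gene at the end of the cluster, had 10.4, 9.89 and 10.8 FPKM in D7, against 2.67, 3.08 and 2.53 in D0. Its log2 fold change was 1.60 ± 0.19 (SE; limma adjusted p = 0.000285), with D7 libraries at least 3 times as high as D0 libraries. Hoxd1, at the opposite end of the cluster, had 3.46, 2.98 and 2.57 FPKM in D7, against 0.252, 0.335 and 0.117 in D0. This gave a log2 fold change of 1.69 ± 0.16 (SE; limma adjusted p = 5.86e-05). Hoxd8 had 27.6, 30.5 and 30.3 FPKM in D7, against 11.3, 10.4 and 8.67 in D0, and a log2 fold change of 1.46 ± 0.50 (SE; limma adjusted p = 0.0421). The Hoxd8 call was lost in 10 of 24 alternative settings, with a highest adjusted p of 0.119.

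Between these genes Hoxd9 was higher in D7 without passing the test, with 8.60, 7.40 and 6.88 FPKM in D7 and 1.68, 2.67 and 2.27 in D0 and a log2 fold change of 1.43 ± 0.78 (SE; limma adjusted p = 0.18). Hoxd10 had 2.52, 3.05 and 2.85 FPKM in D7 and 1.84, 1.54 and 1.29 in D0. Hoxd11 had 0.856, 0.578 and 0.369 FPKM in D7 and 1.30, 0.966 and 1.12 in D0, and Hoxd12 had 0.967, 0.695 and 0.435 in D7 and 1.17, 1.07 and 1.08 in D0. So the genes at both ends of Hoxd and Hoxd8 rose, while Hoxd11 and Hoxd12 were lower in every D7 library without a call. The last gene of Hoxa pointed the same way as Hoxd13 and Hoxc13 but stayed within 2-fold: Hoxa13 had 4.10, 5.23 and 4.19 FPKM in D7 and 2.72, 2.25 and 2.32 in D0, at a log2 fold change of 0.68 ± 0.21 (SE; limma adjusted p = 0.0308). Hoxa11 before it overlapped, with 4.03, 4.06 and 4.97 FPKM in D7 and 3.97, 4.14 and 3.53 in D0.

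**Figure D3:**
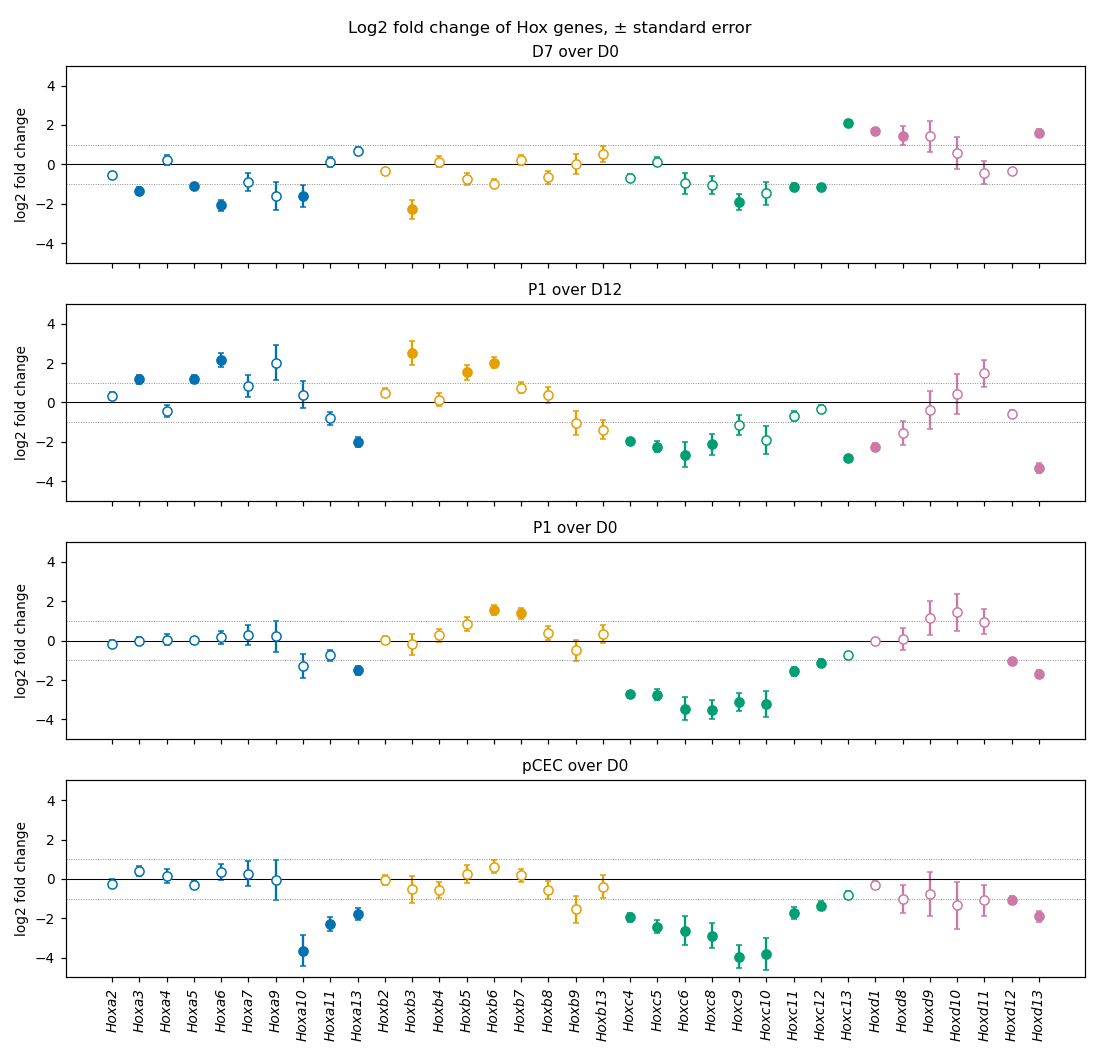
Log2 fold change of the tested Hox genes shown (points, with standard error bars) in cluster order for D7 over D0, P1 over D12, P1 over D0 and pCEC over D0; filled points were called, colours mark the clusters and dotted lines mark 2-fold. In D7 over D0 Hoxc13, Hoxd1, Hoxd8 and Hoxd13 (filled) and Hoxd9 (open) lie above the upper line. In both P1 over D0 and pCEC over D0 8 of 9 Hoxc genes are filled and below the lower line.

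Promoter sequences were looked at because genes of one cluster moved in opposite directions. RefSeq promoters of build GRCm38.p6, running from 250 bases before to 50 after a start, were matched by symbol to 22 members, with 24 entries. AGGTCA, the core repeat bound by nuclear receptors such as those for retinoic acid, was found on either strand in 7 of the 24, against 16.3% of all 32851 promoters of the same length. TATAAA was in 4 (13.6% of all), the Pbx-Hox motif TGATNNAT in 4 (8.85%) and the Cdx motif TTTATG in 5 (11.9%). The motifs were searched as written, on both strands, and matches of different motifs were counted where they overlapped. Among members with 1 promoter entry AGGTCA was in 1 of 3 genes that rose in D7 (Hoxd8), 1 of 3 that fell in D7 (Hoxa5, beyond the 250 bases before the start) and 1 of 4 that fell in P1 against D0 (Hoxc4). The 250 bases before the start are shown for the called members that hold it there, with that motif in capitals: Hoxd8 on the plus strand at chr2:74704365-74704614, where it ends 129 bases before the start, and Hoxc4 on the plus strand, at a start inside the annotated gene, at chr15:103034145-103034394, where it lies on the other strand and ends 140 bases before the start.
Hoxd8: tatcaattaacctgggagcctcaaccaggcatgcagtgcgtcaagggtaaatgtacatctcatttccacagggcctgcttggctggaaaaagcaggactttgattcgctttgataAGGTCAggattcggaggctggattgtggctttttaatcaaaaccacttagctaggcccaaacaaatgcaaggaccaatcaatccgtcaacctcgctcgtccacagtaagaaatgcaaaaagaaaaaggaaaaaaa
Hoxc4: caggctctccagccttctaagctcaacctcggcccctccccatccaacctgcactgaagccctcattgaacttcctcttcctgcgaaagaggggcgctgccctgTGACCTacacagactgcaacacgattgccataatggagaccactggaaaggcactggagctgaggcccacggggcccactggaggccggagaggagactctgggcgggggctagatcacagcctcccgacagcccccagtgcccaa
A match describes these letters only, and Hoxd8 had risen in D7 while Hoxc4 fell in P1.

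No Hox gene was called between D12 and D7, where 0.206% of all genes were (0.109% higher, 0.0974% lower). By limma 3 members had an unadjusted p under 0.05, voom on recovered reads called 0, and the fit of these 2 groups alone called 1. Hoxb13, of the prostate and tail end, had 3.02 and 3.66 FPKM in D12, against 0.749, 1.06 and 0.824 in D7, at a log2 fold change of 1.21 ± 0.46 (SE; limma adjusted p = 0.846). Hoxb9 had 70.3 and 62.99 FPKM in D12 and 45.9, 45.1 and 46.1 in D7, and Hoxb8 had 19.9 and 19.1 in D12 and 11.4, 11.5 and 12.5 in D7. Both were higher in both D12 libraries without a call, and Hoxb8, lower than D0 in every D7 library, was within the D0 range of 17.7 to 20.2 FPKM in D12. The summed Hoxb level was 138 and 135 FPKM in D12 and 96.9, 93.7 and 97.4 in D7, with no overlap. Hoxc5, which had not fallen by day 7, was lower in both D12 libraries than in every D7 library, with 4.84 and 5.32 FPKM in D12 and 8.52, 9.08 and 7.53 in D7, without a call. The genes that had fallen by day 7 were still below every D0 value at day 12, with 11.3 and 8.99 FPKM of Hoxa10 in D12 and 3.24 and 4.34 of Hoxc9. Some that were lower at day 7 without a call were below every D0 value too: Hoxa9 had 4.84 and 3.58 FPKM in D12, Hoxa7 8.11 and 8.10, Hoxc10 4.43 and 4.73, Hoxc6 34.6 and 36.1, Hoxc8 6.40 and 7.64 and Hoxc4 5.42 and 4.84. Those that had risen were still high, with 6.72 and 6.22 FPKM of Hoxc13 in D12, 11.1 and 10.3 of Hoxd13, 4.44 and 5.12 of Hoxd1 and 31.7 and 33.1 of Hoxd8. Hoxd9 had 7.97 and 8.67 FPKM in D12, Hoxd10 4.06 and 4.02, Hoxb4 9.23 and 9.18 and Hoxb7 22.1 and 25.7.

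In P1 compared with D12, 14 of 36 members were called, 6 higher and 8 lower, where 27.6% of all genes were called (14.8% higher, 12.8% lower). The 6 that rose were anterior and central genes of Hoxa and Hoxb. Hoxb6 had 69.7 and 34.2 FPKM in P1, against 10.8 and 11.9 in D12. It rose with a log2 fold change of 2.02 ± 0.27 (SE; limma adjusted p = 0.000582). Hoxb3 had 16.1 and 4.14 FPKM in P1, against 0.692 and 0.579 in D12, at a log2 fold change of 2.52 ± 0.59 (SE; limma adjusted p = 0.00938). Hoxa6 had 4.31 and 4.69 FPKM in P1, against 0.477 and 0 in D12, at a log2 fold change of 2.18 ± 0.35 (SE; limma adjusted p = 0.0015). In all 3 both P1 libraries lay above both D12 libraries. The Hoxb3 call was lost in 2 of 23 alternative settings, without P1 replicate 1 and without D12 replicate 2, with a highest adjusted p of 0.0568. Hoxb5 had 11.9 and 3.76 FPKM in P1 and 1.65 and 1.75 in D12. The Hoxb5 call was lost in 5 of 23 settings, with a highest adjusted p of 0.0862, among them without P1 replicate 1 and without either D12 library. Hoxa5 had 5.68 and 7.51 FPKM in P1 and 2.50 and 2.05 in D12, and Hoxa3 had 3.84 and 4.27 in P1 and 1.60 and 0.938 in D12. Hoxa3, Hoxa5 and Hoxa6 had fallen in D7, and in P1 all 3 lay within 2-fold of every D0 value.

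The 8 that fell between D12 and P1 included 3 of the 4 genes that had risen by day 7. Hoxd13 had 0.0357 and 0.322 FPKM in P1, against 11.1 and 10.3 in D12. Its log2 fold change was -3.32 ± 0.24 (SE; limma adjusted p = 2.12e-05), a call kept in all 23 alternative settings. Hoxc13 had 0 and 0.122 FPKM in P1, against 6.72 and 6.22 in D12, at a log2 fold change of -2.82 ± 0.17 (SE; limma adjusted p = 9.82e-06). Hoxd1 had 0.380 and 0.0537 FPKM in P1, against 4.44 and 5.12 in D12, at a log2 fold change of -2.26 ± 0.19 (SE; limma adjusted p = 5.24e-05). All 3 were near or at 0 in both P1 libraries. Hoxa13 had 0 and 0.443 FPKM in P1 and 4.01 and 3.69 in D12, and the rest that fell were Hoxc4, Hoxc5, Hoxc6 and Hoxc8. The Hoxc6 call was also lost without D12 replicate 1 or P1 replicate 2, and the Hoxc8 call without P1 replicate 1. Without D12 replicate 2 the calls of Hoxa3, Hoxb3, Hoxb5, Hoxc6 and Hoxc8 were lost. More members were called with either P8 library left out of the estimate of spread. Whether calls over all genes moved alike was not set beside this.

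In P1 compared with D0, the fibroblasts of origin, 13 of 36 members were called, 2 higher and 11 lower, where 19.5% of all genes were called (11% higher, 8.5% lower). Of the 11 that fell, 8 were Hoxc genes, out of 9 tested. Summed Hoxc was 10.3 and 7.56 FPKM in P1, against 138, 135 and 131 in D0, which is 2.22% and 4.14% of all Hox FPKM in P1 and 37.2% to 37.9% in D0. The median log2 fold change was -0.03 over the 36 members, -2.74 over the 9 of Hoxc, and 0.04 over all genes tested.

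The abundant Hoxc genes were low in both P1 libraries. Hoxc6 had 7.09 and 3.18 FPKM in P1, against 62.2, 63.1 and 62.9 in D0. Its log2 fold change was -3.45 ± 0.60 (SE; limma adjusted p = 0.00385). Hoxc8 had 0.671 and 1.03 FPKM in P1, against 20.4, 20.3 and 18.8 in D0, with a log2 fold change of -3.50 ± 0.50 (SE; limma adjusted p = 0.00148). Hoxc9 had 1.35 and 0.998 FPKM in P1, against 18.8, 17.3 and 16.4 in D0, at a log2 fold change of -3.09 ± 0.46 (SE; limma adjusted p = 0.0018). In each of them every P1 library was below every D0 library by more than 8-fold. Hoxc10 had 0.209 and 0.838 FPKM in P1, against 13.95, 13.1 and 12.04 in D0, at a log2 fold change of -3.23 ± 0.65 (SE; limma adjusted p = 0.00762). Hoxc4 had 0.518 and 0.585 FPKM in P1, against 10.4, 9.04 and 8.27 in D0, at a log2 fold change of -2.72 ± 0.18 (SE; limma adjusted p = 2.86e-05). Hoxc5 had 0.400 and 0.170 FPKM in P1, against 7.45, 7.65 and 7.50 in D0, at a log2 fold change of -2.74 ± 0.26 (SE; limma adjusted p = 0.000194). The fall thus ran over neighbours from one side of Hoxc to the other. It took in Hoxc11, with 0.0438 and 0.247 FPKM in P1 and 2.50, 2.10 and 2.46 in D0, and Hoxc12, with 0 and 0.388 in P1 and 1.42, 1.57 and 1.75 in D0, whose call was lost without P1 replicate 1. Hoxc13, already below 1 FPKM in D0, had a log2 fold change of -0.74 ± 0.16 (SE; limma adjusted p = 0.00946) and fell short of the 2-fold limit.

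The 3 others that fell were the last genes of Hoxa and Hoxd. Hoxd13 had 0.0357 and 0.322 FPKM in P1, against 2.67, 3.08 and 2.53 in D0, at a log2 fold change of -1.68 ± 0.22 (SE; limma adjusted p = 0.000947). Hoxa13 had 0 and 0.443 FPKM in P1 and 2.72, 2.25 and 2.32 in D0, at a log2 fold change of -1.51 ± 0.24 (SE; limma adjusted p = 0.00254). Hoxd12 had 0 and 0.0395 FPKM in P1 and 1.17, 1.07 and 1.08 in D0, at a log2 fold change of -1.05 ± 0.15 (SE; limma adjusted p = 0.00151). These are low genes on either side, and all of their calls were lost with a pseudocount of 5.

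The 2 that rose were neighbours in Hoxb. Hoxb6 had 69.7 and 34.2 FPKM in P1, against 15.7, 16.6 and 15.6 in D0, and a log2 fold change of 1.56 ± 0.25 (SE; limma adjusted p = 0.00255). Hoxb7 had 59.2 and 28.4 FPKM in P1, against 18.5, 14.1 and 12.9 in D0, at a log2 fold change of 1.39 ± 0.27 (SE; limma adjusted p = 0.00648). Without P1 replicate 1 the Hoxb7 call was lost, at a log2 fold change still above 0. Around them Hoxb4 had 11.4 and 9.28 FPKM in P1 and 8.999, 8.16 and 8.06 in D0, Hoxb5 had 11.9 and 3.76 in P1 and 3.50, 3.08 and 3.38 in D0, and Hoxb8 had 34.8 and 18.4 in P1 and 20.2, 19.8 and 17.7 in D0. None of these was called. Hoxb9 lay on both sides of D0, with 50.6 and 19.8 FPKM in P1 and 46.1, 45.1 and 44.1 in D0. Nor was Hoxa7, Hoxa9 or Hoxa10: Hoxa7 had 25.2 and 9.12 FPKM in P1 and 13.2, 12.1 and 12.1 in D0, Hoxa9 had 32.4 and 12.3 in P1 and 15.97, 18.02 and 17.3 in D0, and Hoxa10 had 28.8 and 6.10 in P1 and 34.8, 35.7 and 32.6 in D0.

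The 2 P1 libraries lay far apart in Hox genes. Of the 16 members with at least 5 FPKM in 1 of them and reads in both, 13 were 2-fold or more apart, and all 13 were higher in replicate 1. Over all 10738 such genes 21.8% were 2-fold or more apart, 11.9% being higher in replicate 1. The widest gaps were in Hoxd. Hoxd10, of the lumbar cord and the forearm, had 28.8 and 0.606 FPKM in replicates 1 and 2, a ratio of 47.5, against 1.84, 1.54 and 1.29 in D0. Hoxd9 had 26.8 and 0.796 FPKM, a ratio of 33.7. Hoxd11 had 9.97 and 0.581 FPKM, a ratio of 17.2, and Hoxd8 had 26.6 and 3.88 FPKM, a ratio of 6.85. Hoxd12 and Hoxd13, next to Hoxd11, were at or near 0 in the same libraries. More members were called in P1 against D0 without P1 replicate 2, and as many without replicate 1. Calls over all genes in those fits were not set beside them. The epithelial sums of the 2 libraries were 6967 and 9349 FPKM and the fibroblast sums 472.9 and 1110, and their part in the gap was not tested.

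**Figure D4:**
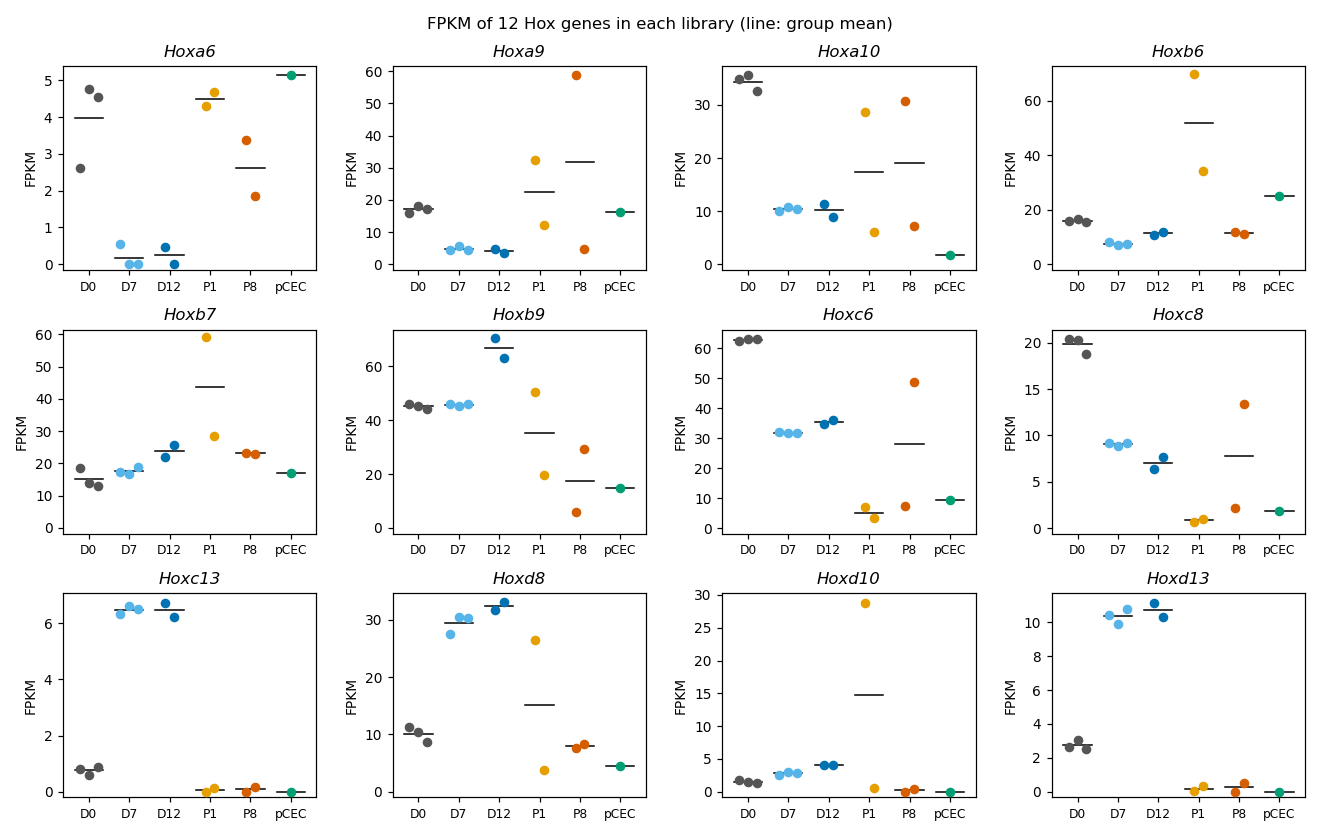
FPKM of 12 Hox genes in each library (points) by group, with the group mean as a line, on linear axes that differ between panels. Hoxc6 and Hoxc8 are low in P1 and split the P8 pair, Hoxc13 and Hoxd13 are high only in D7 and D12 among these groups, and Hoxd8 and Hoxd10 split the P1 pair.

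P8 and P1 carry the same cell name in the labels. In P8 compared with P1, of 36 members 3 were called, 2 higher and 1 lower, where 1.16% of all genes were called (0.269% higher, 0.894% lower). The call count was higher when either P8 library was left out, and a fit of P8 and P1 alone called none. The shares of all genes called in those fits were not set beside these counts. Hoxc4 had 4.24 and 5.37 FPKM in P8, against 0.518 and 0.585 in P1. It rose with a log2 fold change of 1.90 ± 0.20 (SE; limma adjusted p = 0.00248). Hoxc5 had 2.08 and 4.98 FPKM in P8, against 0.400 and 0.170 in P1, at a log2 fold change of 1.75 ± 0.29 (SE; limma adjusted p = 0.0242), a call lost in 11 of 22 alternatives. Hoxb6 had 11.7 and 10.9 FPKM in P8, against 69.7 and 34.2 in P1, at a log2 fold change of -2.02 ± 0.27 (SE; limma adjusted p = 0.0101). In these 3 genes both P8 libraries lay on the same side of both P1 libraries.

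In other members the P8 libraries lay apart. Hoxc6 had 7.40 and 48.7 FPKM in P8 replicates 1 and 2, Hoxc8 had 2.16 and 13.4, Hoxc9 had 2.09 and 10.9 and Hoxc10 had 0 and 6.42. In all 4 replicate 2, the library with fibroblast and macrophage markers, was the higher one and lay between the P1 and the D0 values. Hoxb9 had 5.82 and 29.4 FPKM, Hoxb3 1.37 and 6.25, Hoxb4 2.50 and 7.38 and Hoxb8 4.13 and 11.9. These too were higher in replicate 2. The neighbours Hoxa7, Hoxa9 and Hoxa10 went the opposite way: Hoxa9 had 58.9 and 4.73 FPKM, Hoxa10 30.8 and 7.20 and Hoxa7 30.3 and 7.49. Beyond them Hoxa11, with 0.441 and 2.00 FPKM, and Hoxa13, with 0 and 0.560, were higher in replicate 2. The 58.9 FPKM of Hoxa9 in P8 replicate 1 was the highest Hoxa value in any library. In that library Hoxa made up 62.6% of all Hox FPKM, and in replicate 2 it made up 14.9%. Of 15 members with at least 5 FPKM in 1 P8 library and reads in both, 10 were 2-fold or more apart, 3 higher in replicate 1 and 7 in replicate 2, against 39.3% of all 10647 such genes. Hoxa5, Hoxb6, Hoxb7 and Hoxd8 agreed within 1.09-fold, with 23.3 and 22.9 FPKM for Hoxb7, 7.69 and 8.38 for Hoxd8 and 6.15 and 5.73 for Hoxa5. Hoxa3 had 3.65 and 2.78 FPKM in P8, Hoxa6 3.39 and 1.86 and Hoxb5 2.81 and 2.78. The Hoxd genes beyond Hoxd8 were low in both, with 1.90 and 1.04 FPKM of Hoxd9, 0 and 0.423 of Hoxd10, 0 and 0.444 of Hoxd11 and 0 and 0.546 of Hoxd13, and Hoxc13 had 0 and 0.184.

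In pCEC compared with D0, 13 of 36 members were called and all were lower, where 22.9% of all genes were called (12.9% higher, 9.97% lower). With 1 pCEC library the test takes the spread from the other groups. The called members were Hoxc4, Hoxc5, Hoxc6, Hoxc8, Hoxc9, Hoxc10, Hoxc11 and Hoxc12, the Hoxa genes Hoxa10, Hoxa11 and Hoxa13, and Hoxd12 and Hoxd13. Of these, 7 were listed at 0 in pCEC, and with only genes that had reads in both groups the count was 6. That count stands without the share of all genes called in the same setting. The median log2 fold change was -0.80 over the 36 members, and 0.05 over all genes tested.

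Members with reads in pCEC divided by paralog number. Of the 12 members with paralog numbers 10 to 13, 1 had reads in pCEC, against all 12 in each D0 library; of the 27 with numbers 1 to 9, 24 had reads in pCEC and 25 in D0. Hoxa10, the 1 left, had 1.83 FPKM in pCEC, against 34.8, 35.7 and 32.6 in D0, at a log2 fold change of -3.64 ± 0.79 (SE; limma adjusted p = 0.00996), a call lost by voom on recovered reads (adjusted p = 0.0526). Hoxa9, its neighbour, had 16.3 FPKM in pCEC and 15.97, 18.02 and 17.3 in D0, at a log2 fold change of -0.06 ± 1.01 (SE; limma adjusted p = 0.993). Hoxc10, listed at 0 in pCEC, was at least 172-fold lower than in D0, taking 3 reads in the pCEC library as the floor. On the same floor Hoxa11 was at least 58.8-fold lower, Hoxd13 at least 47.3-fold, Hoxc11 at least 32.8-fold, Hoxd12 at least 19.3-fold, Hoxa13 at least 19.0-fold and Hoxc12 at least 11.2-fold. When identifiers of single D0 libraries were hidden, 14 to 18 of 13089 to 13168 genes at or above 1 FPKM were wrongly placed at 0, and none was a Hox gene; with the lengths of 20% of genes also left unchecked, 31 of 2669 such genes were wrongly at 0 in D0 replicate 1. In P8 replicate 1, 3 of the 12 with numbers 10 to 13 had reads, and in P1 replicates 1 and 2, 8 and 11 did.

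Most genes of lower number outside Hoxc had reads in pCEC, but Hoxb1, Hoxd1 and Hoxd4 were listed at 0. Hoxa2, Hoxa4, Hoxb2, Hoxd3 and Hoxd9 were below 1 FPKM there. Hoxb6 had 25.2 FPKM in pCEC and 15.7, 16.6 and 15.6 in D0. Hoxb7 had 17.2 FPKM in pCEC and 18.5, 14.1 and 12.9 in D0, and Hoxa7 had 15.3 in pCEC and 13.2, 12.1 and 12.1 in D0. These 3 lay near or above D0. Hoxb9 had 14.8 FPKM in pCEC, against 46.1, 45.1 and 44.1 in D0, at a log2 fold change of -1.54 ± 0.70 (SE; limma adjusted p = 0.127). Hoxb8 had 12.8 FPKM in pCEC, Hoxb3 6.42, Hoxb4 5.34 and Hoxb5 4.14. Hoxa3 had 5.92 FPKM in pCEC, Hoxa5 5.12 and Hoxa6 5.14. None of these genes was called. Hoxc genes of lower number were called: Hoxc6 had 9.32 FPKM in pCEC, against 62.2, 63.1 and 62.9 in D0, at a log2 fold change of -2.63 ± 0.75 (SE; limma adjusted p = 0.0297), and Hoxc9 had 0.193 in pCEC, against 18.8, 17.3 and 16.4 in D0, at a log2 fold change of -3.95 ± 0.58 (SE; limma adjusted p = 0.00165). The Hoxc6 call was lost in 4 of 22 alternative settings, without any 1 of the D0 libraries and with no filter, with a highest adjusted p of 0.0645. Hoxc8 had 1.82 FPKM, Hoxc4 1.62 and Hoxc5 0.573. In Hoxd, Hoxd8 had 4.48 FPKM and Hoxd9 0.859. The pCEC library thus held Hox transcripts summing to 158 FPKM, with the epithelial markers given above.

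Between P1 and pCEC no member was called by limma, where 2.31% of all genes were (0.813% higher, 1.5% lower), and 6 had an unadjusted p under 0.05. This count was higher when either P1 library was left out. With P8 left out of the fit it was 2, and voom on recovered reads called 1. None of these settings has the share of all genes called beside it. Hoxa10 had 28.8 and 6.10 FPKM in P1 and 1.83 in pCEC, at a log2 fold change of 2.36 ± 0.84 (SE; limma adjusted p = 0.204). Hoxb6 had 69.7 and 34.2 FPKM in P1 and 25.2 in pCEC, at a log2 fold change of 0.93 ± 0.33 (SE; limma adjusted p = 0.205). Hoxa11 had 1.55 and 2.33 FPKM in P1 and 0 in pCEC, at a log2 fold change of 1.54 ± 0.39 (SE; limma adjusted p = 0.0794). The comparisons of P1 and of pCEC with D0 share the D0 libraries. Side by side, summed Hoxc was 10.3 and 7.56 FPKM in P1 and 13.52 in pCEC. Summed Hoxb was 256 and 119 FPKM in P1 and 86.5 in pCEC.

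Members below 5 FPKM in every group that no comparison called included Hoxa2, Hoxa4, Hoxb1, Hoxb2, Hoxb13, Hoxd3 and Hoxd4. Hoxa2, of the second pharyngeal arch, was at 0.204 to 1.11 FPKM and Hoxb2 at 0.0254 to 1.09. Hoxb13 ran from 0 to 3.66 FPKM, with its highest values in D12. Hoxb1 reached 0.0697 FPKM at most, Hoxd3 0.936, and Hoxd4 was listed at 0 in every library. Hoxd4 and Hoxb1 had no reads in D0 on which their lengths could be checked.

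Genes that work with, neighbour or control the clusters were counted on 9 lists, to be read against the shares of all tested genes called: 11.3% higher and 10.9% lower in D7 against D0, 11% and 8.5% in P1 against D0, 14.8% and 12.8% in P1 against D12, and 12.9% and 9.97% in pCEC against D0. Of the TALE homeodomain cofactors 8 of 9 were measured, and in D7 against D0 1 was lower. Meis1 was at 4.11 to 4.54 FPKM in D7 and 16.04 to 17.3 in D0, at a log2 fold change of -1.73 ± 0.18 (SE; limma adjusted p = 0.000106). In P1 against D0 1 was higher and 2 lower. Pknox2 was at 0.153 to 0.518 FPKM in P1 and 4.86 to 5.63 in D0, at a log2 fold change of -2.25 ± 0.24 (SE; limma adjusted p = 0.000312), and Pbx3 was lower at a log2 fold change of -1.10 ± 0.23 (SE; limma adjusted p = 0.0092). The 8 had a median log2 fold change of -0.13 in D7 and -0.55 in P1, against 0.00 and 0.04 over all genes.

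Of 21 noncoding RNAs of the clusters 13 were measured. In D7 against D0 1 was higher and 2 lower. Haglr, transcribed from the Hoxd cluster, was at 5.11 to 5.93 FPKM in D7 and 0.425 to 0.679 in D0, at a log2 fold change of 2.08 ± 0.22 (SE; limma adjusted p = 0.000113), and moved in the direction of Hoxd8. Hoxaas2 of the Hoxa cluster was at 0.146 to 0.247 FPKM in D7 and 1.65 to 2.18 in D0, at a log2 fold change of -1.25 ± 0.15 (SE; limma adjusted p = 0.000282). In P1 against D0 only Mir10b was called, at 2.60 to 2.94 FPKM in P1 and 0 in D0. Mir10b is a microRNA gene so short that a few reads give such FPKM, so its call stands near the floor. Of 14 genes next to the clusters 10 were measured, with 2 lower in D7 (Cbx5, at a log2 fold change of -1.73 ± 0.24 (SE; limma adjusted p = 0.000543), and Skap2, at a log2 fold change of -1.13 ± 0.25 (SE; limma adjusted p = 0.00666)) and 2 lower in P1 against D0, Cbx5 and Lnpk (for Lnpk, a log2 fold change of -1.05 ± 0.27 (SE; limma adjusted p = 0.0195)). Of 6 Cdx and ParaHox genes 1 was measured and none was called.

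All 22 Polycomb subunits, which hold Hox genes silent, were measured, and 2 were called in D7 against D0. Jarid2 was at 80.3 to 83.8 FPKM in D7 and 11.2 to 12.5 in D0, at a log2 fold change of 2.71 ± 0.26 (SE; limma adjusted p = 6.69e-05). Phf19 was at 0.221 to 0.312 FPKM in D7 and 2.68 to 3.69 in D0, at a log2 fold change of -1.70 ± 0.20 (SE; limma adjusted p = 0.000244). Ezh1 was at 52.2 to 64.6 FPKM in P1 and 10.8 to 11.98 in D0, at a log2 fold change of 2.26 ± 0.38 (SE; limma adjusted p = 0.00357). Cbx7 was at 53.7 FPKM in pCEC and 2.03 to 2.76 in D0 and was called as higher. The median over the list was -0.24 in D7. Of 9 measured Trithorax genes and demethylases of H3K27, which keep Hox genes active, 2 were lower in D7: Kmt2a, at a log2 fold change of -1.09 ± 0.27 (SE; limma adjusted p = 0.012), and Ash1l, at a log2 fold change of -1.09 ± 0.23 (SE; limma adjusted p = 0.00503). None was called in P1 against D0, and 5 were higher in P1 against D12.

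Of 15 measured receptors and response genes of retinoic acid, a known regulator of Hox clusters, 7 were higher and none lower in D7 against D0 (11.3% and 10.9% of all genes), with a median log2 fold change of 2.10. Stra6, a vitamin A transporter, was at 549 to 578 FPKM in D7 and 0.397 to 0.696 in D0, at a log2 fold change of 8.49 ± 0.89 (SE; limma adjusted p = 0.000121). Dhrs3, a retinaldehyde reductase, was at 307 to 327 FPKM in D7 and 11.6 to 14.3 in D0, at a log2 fold change of 4.48 ± 0.68 (SE; limma adjusted p = 0.00101). Cyp26b1, which degrades retinoic acid, was at 238 to 262 FPKM in D7 and 27.7 to 29.3 in D0, at a log2 fold change of 3.10 ± 0.75 (SE; limma adjusted p = 0.00971). Aldh1a1, which makes retinoic acid, rose with a log2 fold change of 3.43 ± 1.14 (SE; limma adjusted p = 0.0386). In P1 against D0 4 were higher, among them Aldh1a3, at a log2 fold change of 6.75 ± 1.46 (SE; limma adjusted p = 0.0101). Crabp1, which binds retinoic acid in the cell, was lower in P1 against D12, at a log2 fold change of -7.83 ± 2.63 (SE; limma adjusted p = 0.0408), and the receptor Rarg was higher in pCEC against D0, at a log2 fold change of 1.18 ± 0.30 (SE; limma adjusted p = 0.0183).

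Position genes outside the clusters were counted in the same way. Of 12 limb genes, 3 were higher and 1 lower in D7 against D0, and 1 was higher and 7 lower in P1 against D0 (11% and 8.5% of all genes), with a median log2 fold change of -2.02 in P1, against 0.04 over all genes. Tbx15 was at 0.292 to 0.725 FPKM in P1 and 77.9 to 80.5 in D0, at a log2 fold change of -5.75 ± 0.65 (SE; limma adjusted p = 0.000482). Shox2 was at 0.126 to 0.628 FPKM in P1 and 27.6 to 30.2 in D0, at a log2 fold change of -4.48 ± 0.68 (SE; limma adjusted p = 0.00211). The one that rose was Pitx1, a hindlimb gene, at 153 to 226 FPKM in P1 and 5.75 to 7.37 in D0 and a log2 fold change of 4.65 ± 1.38 (SE; limma adjusted p = 0.0341). Prrx2 was at 230.0 to 274 FPKM in D7 and 33.7 to 63.7 in D0. It rose in D7 with a log2 fold change of 2.50 ± 0.40 (SE; limma adjusted p = 0.0013), and it was lower in P1 against D0, at a log2 fold change of -2.03 ± 0.45 (SE; limma adjusted p = 0.0108). In pCEC against D0 7 of the 12 were lower, against 9.97% of all genes. Of 19 measured genes of the anterior head and eye, 6 were higher and 1 lower in D7 against D0, among them Barx1, at a log2 fold change of 2.67 ± 0.25 (SE; limma adjusted p = 5.86e-05), and Dlx2, at a log2 fold change of 2.41 ± 0.36 (SE; limma adjusted p = 0.000961). In P1 against D0 1 was higher, Foxc1, at a log2 fold change of 3.20 ± 0.86 (SE; limma adjusted p = 0.0233), and 4 were lower.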

How the data were processed

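RNA-seq libraries were made with the Illumina TruSeq RNA kit, and Bowtie 0.12.2 stands in the submitters' processing notes beside mm8 and mm10 as genome builds. Gene levels are FPKM as deposited by the authors, 1 table with 13 columns; the gene annotation and the counting rule are not given in the sources used here. Identifiers fit the D0 columns only. Lines of the other groups were placed by the slot order of a Python 2 dictionary with 131072 slots, under the condition that FPKM times the mean GENCODE M21 transcript length and the library total gives whole reads within 0.0001 reads. Outside D0, 98.27% to 98.75% of lines with reads were placed. With hidden D0 identifiers, from a starting guess of line order built on D0, 99.87% to 99.96% were placed right. With the lengths of 20% of genes also unchecked, 99.92% and 99.93% of placed lines were right, but 94.36% and 93.82% of such genes at 1 FPKM were placed right and 20 and 31 were wrongly at 0; the lengths of 37 of 39 members were checked. In all, 1457 genes without a certain line and 16 listed at 0 in a whole group but at 1 FPKM or more in the others were left out.

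Differences were tested with limma 3.58.1 in R 4.3.3 on log2(FPKM + 1), trended, after keeping 17459 genes with 1 FPKM in 1 library. Placement used Python, numpy and numba. Members with a group mean of 5 FPKM, or called, are named with values, except that some genes are not reported here; members, lists and rules were chosen with earlier results of these data known. FPKM carries counting error that is largest in P1 replicate 2, the shallowest library.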

Additional observations from a re-analysis of the deposited data

How the results depend on the processing

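Counts of called Hox genes moved by over 1.5 times in these settings. These counts, and those given above for other settings, stand without the share of all genes called in the same setting. Whether they moved apart from the calls over all genes was not tested. With a pseudocount of 5 in place of 1 they were 4 in D7 against D0, 6 in P1 against D12, 8 in P1 against D0, 1 in P8 against P1 and 7 in pCEC against D0, since low genes then fall below 2-fold. With a pseudocount of 0.1, P1 against pCEC gave 2. Fits of the 2 compared groups alone gave 1 in D12 against D7 and 0 in P8 against P1. Voom on recovered reads gave 1 in P1 against pCEC. With only genes that had reads in both groups, pCEC against D0 gave 6. Of 2 alternatives chosen after seeing the data, the fit of the 3 early groups gave 1 in D12 against D7 and the fit without P8 gave 2 in P1 against pCEC. Leaving out 1 library at a time gave 10 to 15 in D7 against D0, 0 in D12 against D7, 9 to 19 in P1 against D12, 13 to 18 in P1 against D0, 2 to 10 in P8 against P1, 12 to 16 in pCEC against D0 and 0 to 8 in P1 against pCEC; where this left 1 library in a group, it is assumed to vary like the others. For the moves other than with the pseudocount the cause was not tested.

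The labels give no shared source for a replicate number. Deviations of same-numbered libraries correlated at 0.0108, 0.00508 and -0.046 in D7 and D0, the 1 comparison with 3 pairs. With 2 pairs each, they correlated at -0.118 and -0.00559 in P1 and D0 and at 0.0531 and -0.0529 in D12 and D7. The value was 0.179 in P1 and D12 and 0.0179 in P8 and P1. In groups of 2 libraries the deviations mirror each other, so there both pairs must give the same value. With no shared source in the labels, the numbers were not taken to pair the libraries. With the replicate number as a block the count was 1 in P8 against P1, against 3 without it, and 11 in D7 against D0, against 12; it left 14 in P1 against D12, 13 in P1 against D0 and 0 in D12 against D7. No paired analysis was possible for pCEC because its 1 library shares no pair of numbers with another group.

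Of 55 single calls of members, 17 held in all of their alternatives, 23 were lost only with the pseudocount of 5, 15 were lost in others, and 0 changed sign. TMM scaling moved the median of all genes by -0.11 in P1 against D12 and by less than 0.1 elsewhere, and left every count of called members within 1.5 times.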
